A study of Mus musculus with 9 samples.

Results

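The data described here are the transcriptomes of 7 out of 9 sequenced clones of the E14 line of mouse embryonic stem cells. Clones 8, 14 and 17 form a first set of 3 and clones 1, 4, 6 and 13 a second set of 4. The sets were chosen by expression similarity: the clones were assigned by name after the similarity of their transcriptomes had been seen, so that every difference between the sets is given as a description, with no test. All clones had the same background and treatment. They were derived from bulk E14 cultures for differing lipid droplet size, and were expanded in serum with leukaemia inhibitory factor (LIF) on gelatin. The labels give no clone its droplet size, and no engineered allele or added agent is named for any clone. Each clone is 1 line and 1 library, so no value has a replicate of its own. In a library made from a whole culture, fewer cells that express a gene and less RNA per cell cannot be told apart.

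Mouse embryonic stem cells in serum and LIF hold a self-renewing state in which the factors Pou5f1, Sox2 and Nanog maintain pluripotency, while LIF signalling favours the naive state and signalling from Fgf4 through ERK favours its exit. In this medium the cells of a culture vary, and genes such as Nanog, Dppa3 and Prdm14 are known to differ from cell to cell. Stem cell lines are also known to gain or lose whole chromosomes in culture, with chromosomes 8 and 11 among those most often affected, and a change in copy number shifts the RNA level of most genes on the chromosome. Copy number was not measured here. The genes on chromosome 8, on chromosome 11 and on distal chromosome 6 (from 110 Mb onward) are described apart from the 11356 genes on other chromosomes or proximal chromosome 6, which are called the genes on other chromosomes below.

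The deposited estimated counts summed to between 10783718 and 14309662 per clone. Levels are given in CPM, which scales gene counts to the size of each library with TMM factors, and 13376 genes had a mean of at least 1 CPM over the 9 clones. A single count stood for 0.0698 to 0.0975 CPM, and 3 counts, the level that a count of 0 allows, for 0.209 to 0.293 CPM. The embryonic stem cell markers Pou5f1, Sox2, Nanog, Zfp42, Klf4, Esrrb, Utf1 and Dppa5a were present in all 7 clones, with a summed level of 4926 to 5065 CPM in the first set and 4909 to 5585 CPM in the second. Spearman's rho over the 13376 genes was 0.991 to 0.9936 within the first set, 0.9842 to 0.9943 within the second and 0.9634 to 0.9796 between them. The 2 clones outside the sets, 10 and 11, had a rho of 0.9616 to 0.9755 with the first set and 0.9672 to 0.9784 with the second.

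A gene is called without overlap when every clone of one set was above every clone of the other, and 2-fold apart when the nearest clones of the 2 sets still differed by 1 or more on the log2 CPM scale. Values are listed for clones 8, 14 and 17 and then, often after the word against, for clones 1, 4, 6 and 13, in that order. On other chromosomes, 2281 genes (20.1%) were higher in the first set without overlap and 1995 (17.6%) were lower. Of these, 84 (0.74%) were 2-fold apart and higher, and 100 (0.881%) were 2-fold apart and lower. The 2 lists differed in kind: 49 of the 84 higher genes were protein-coding and 35 were pseudogenes, whereas 99 of the 100 lower genes were protein-coding. Each gene's mean level over the 7 clones had a median of 3.72 CPM in the lower genes and 13.5 CPM in the higher ones. CPM is not scaled by transcript length. Chromosome X held 9 of the 100 lower genes and 2 of the 84 higher ones, among 470 X-linked genes measured. Without clone 14, 132 genes were 2-fold apart and higher and 173 lower. On the log2(TPM + 1) scale, which compresses low levels, the counts were 50 and 44.

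The widest gap of any named gene on other chromosomes was in Usp26, a deubiquitinase known from the testis, at chrX:51753959-51801233 (GRCm38, as all coordinates here). Clones 8, 14 and 17 had 1.14, 0.438 and 0.431 CPM, and clones 1, 4, 6 and 13 had 34.5, 35.98, 39.6 and 36.7 CPM. The set medians differed by -5.96 (log2 CPM, first set minus second, as in all differences below), and clones 10 and 11 lay with the second set at 25.4 and 47.8 CPM. Other genes with wide gaps were Pnma5 and Gpat2, of which Gpat2 is also known from the germline. Pnma5, an X-linked gene of the paraneoplastic Ma antigen family, was at 1.93, 0.729 and 0.359 CPM in the first set and 19.1, 13.2, 14.6 and 16.8 CPM in the second. Gpat2, a glycerol-3-phosphate acyltransferase of male germ cells that is related to the enzymes of triglyceride synthesis, was at 1.43, 0.583 and 1.44 against 13.3, 12.3, 9.84 and 12.2 CPM. Each of these genes was under 1 CPM in at least 1 clone of the first set, and in each clones 10 and 11 lay above the whole first set.

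The stretches upstream of these genes are shown because some of them are germline genes, which are known to be governed by methylation of CpG dinucleotides near their start. Each is the 250 bases before the annotated start, from RefSeq on GRCm38.p6, read 5′ to 3′ on the gene's strand, with every CG in capitals. They are Usp26 at chrX:51801234-51801483 (minus strand, 5 CG), Pnma5 at chrX:73037104-73037353 (minus strand, 0 CG), Gpat2 at chr2:127424949-127425198 (plus strand, 11 CG), Lef1 at chr3:131110073-131110322 (plus strand, 14 CG) and Tuba3a at chr6:125286082-125286331 (minus strand, 8 CG). Tuba3a, a testis tubulin on distal chromosome 6, and Lef1, a Wnt pathway factor that is no germline gene, are described further on.
Usp26: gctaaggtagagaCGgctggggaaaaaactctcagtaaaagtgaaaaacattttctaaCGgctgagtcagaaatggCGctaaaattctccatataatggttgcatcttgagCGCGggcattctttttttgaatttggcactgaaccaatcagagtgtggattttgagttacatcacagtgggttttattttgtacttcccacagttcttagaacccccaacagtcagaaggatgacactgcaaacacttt
Pnma5: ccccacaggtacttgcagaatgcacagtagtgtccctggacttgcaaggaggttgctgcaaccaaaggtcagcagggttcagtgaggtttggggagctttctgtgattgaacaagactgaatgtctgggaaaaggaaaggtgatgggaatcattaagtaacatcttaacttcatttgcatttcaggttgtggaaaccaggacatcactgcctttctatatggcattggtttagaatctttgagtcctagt
Gpat2: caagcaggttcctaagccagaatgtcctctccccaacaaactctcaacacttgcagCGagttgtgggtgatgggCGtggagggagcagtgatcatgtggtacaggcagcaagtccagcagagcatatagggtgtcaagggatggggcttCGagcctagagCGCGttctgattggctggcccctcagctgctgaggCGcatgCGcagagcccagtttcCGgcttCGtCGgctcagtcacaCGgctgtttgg
Lef1: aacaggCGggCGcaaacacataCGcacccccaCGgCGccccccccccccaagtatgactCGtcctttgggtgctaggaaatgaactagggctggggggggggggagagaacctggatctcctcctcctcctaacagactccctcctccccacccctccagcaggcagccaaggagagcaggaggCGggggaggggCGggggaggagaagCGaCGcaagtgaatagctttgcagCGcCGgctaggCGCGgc
Tuba3a: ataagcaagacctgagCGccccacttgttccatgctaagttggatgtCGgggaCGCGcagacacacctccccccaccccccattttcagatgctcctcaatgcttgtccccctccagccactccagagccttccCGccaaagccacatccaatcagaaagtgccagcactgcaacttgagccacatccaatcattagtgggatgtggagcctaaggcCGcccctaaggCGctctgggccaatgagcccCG
The motif searched was CG, which reads the same on both strands and cannot overlap itself. Over 8729 of 10854 protein-coding genes on other chromosomes with an entry, taking the start with the most CG where a gene had several, 99.3% of windows held at least 1 CG and the median was 17. Of 82 lower genes 2-fold apart with an entry, out of 99, the median was 8, and 56.1% held fewer than 10 CG, against 22.0% of all. For the higher genes only 36 of 49 (73.5%) had an entry, under the 80% set for such a check, which is therefore void. Among those 36 the median was 9 and 52.8% held fewer than 10 CG. No conclusion is drawn from this, and low counts cannot be called particular to the lower genes. These counts describe letters only, and methylation was not measured.

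The remaining lower genes with the widest gaps included meiotic, matrix and immune genes. Slc4a5, a sodium bicarbonate cotransporter, was at 2.78, 2.63 and 2.08 CPM in the first set against 38.5, 52.5, 32.9 and 34.5 CPM in the second. Of its summed TPM, 45.7% lay in a 751-base model annotated as non-coding. Rec114, which is needed to form the DNA breaks of meiosis, was at 0.642, 0.583 and 0.287 against 4.19, 6.02, 3.91 and 5.59 CPM in the same order. Tcp11x2, an X-linked gene of a testis-expressed family, had 1, 0 and 0 counts in the first set and 1.75, 1.37, 1.33 and 2.42 CPM in the second. Fmr1nb, an X-linked cancer-testis gene next to Fmr1, was at 2.28, 4.01 and 1.37 against 21.4, 27.98, 20.7 and 23.8 CPM, and Acan, the cartilage proteoglycan aggrecan, at 1.57, 1.53 and 1.15 against 10.3, 10.4, 8.51 and 9.06 CPM. Wdfy4, which serves antigen cross-presentation in dendritic cells, was at 0.214, 0.219 and 0.144 against 1.75, 3.51, 1.81 and 1.81 CPM, and Cd6, a T cell surface receptor whose counts lay mostly in a retained-intron model, at 0.0714, 0.146 and 0.144 against 2.63, 1.75, 2.44 and 1.28 CPM. Clone 10 was lower than every clone of the second set in Slc4a5, Pnma5, Gpat2, Rec114, Tcp11x2, Wdfy4, Fmr1nb and Acan. Rec114, Tcp11x2, Wdfy4 and Cd6 were under 1 CPM in every clone of the first set and passed the filter through the other clones.

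**Figure D1:**
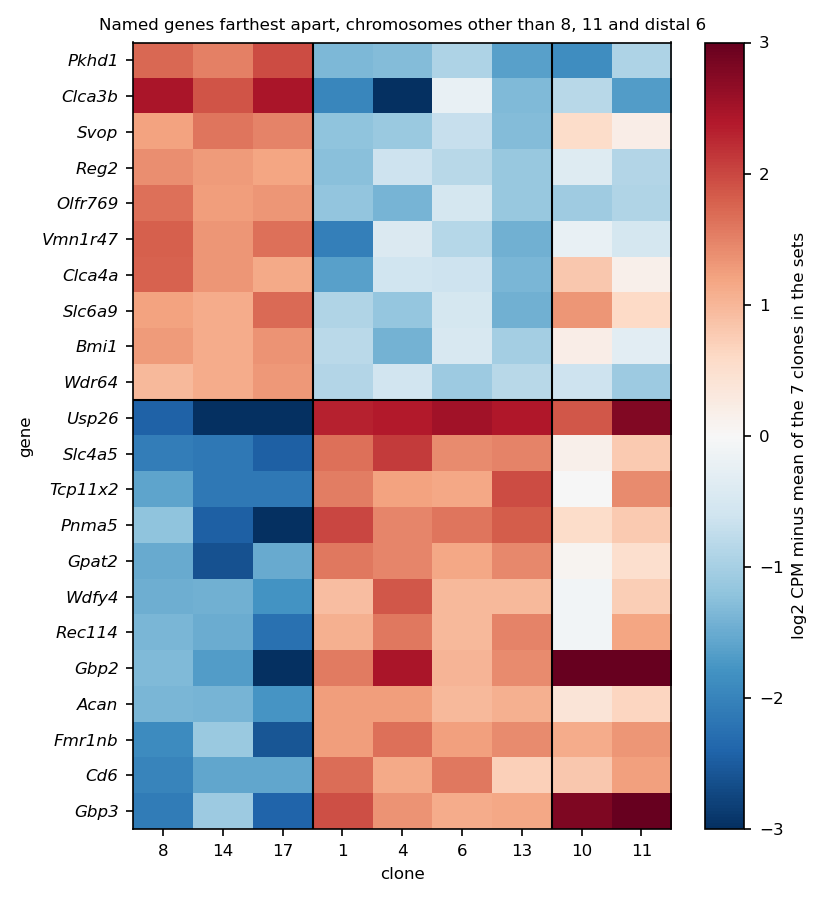
Level of 22 named genes on other chromosomes with wide gaps, as log2 CPM minus the mean of the 7 clones in the sets (colour, saturated at -3 and 3), with 1 column per clone and black lines between clones 8, 14 and 17, clones 1, 4, 6 and 13, and clones 10 and 11. The upper 10 genes are higher and the lower 12 lower in every clone of the first set, and clones 10 and 11 are intermediate for many of them.

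The higher genes with the widest gaps included membrane and chemosensory genes. Of those below, Pkhd1, Svop, Slc6a9, Wdr64 and Vmn1r47 were under 1 CPM in every clone of the second set. These genes passed the filter through the other clones. Clca3b, of a family of regulators of calcium-activated chloride channels, was at 19.6, 13.1 and 19.5 against 0.7799, 0.229, 2.93 and 1.28 CPM. Its relative Clca4a was at 6.57, 4.74 and 4.17 against 0.487, 1.14, 1.12 and 0.604 CPM, but 52.5% of the 31-base words of its main transcript occur in 2 other genes, so that reads may have been divided between them. Clone 6 was the highest clone of the second set in Clca3b and Pkhd1.

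Reg2, a secreted lectin of the regenerating islet family, was at 122, 113 and 105 CPM in the first set and 19.2, 30.2, 25.9 and 21.1 CPM in the second. Pkhd1, which encodes the ciliary protein fibrocystin, was at 5.995, 5.18 and 7.11 against 0.585, 0.6099, 0.837 and 0.453 CPM, with 75.1% of its TPM in a 615-base model annotated as non-coding. The counts of Pkhd1 are therefore not a measure of the coding mRNA. Svop, a synaptic vesicle transporter-like protein, was at 3.28, 4.38 and 4.02 against 0.487, 0.534, 0.767 and 0.453 CPM, Slc6a9, a glycine transporter, at 2.21, 2.04 and 3.16 against 0.39, 0.305, 0.558 and 0.227 CPM and Wdr64, a protein with WD repeats, at 2.498, 2.77 and 3.16 against 0.585, 0.762, 0.488 and 0.604 CPM. In Slc6a9 clones 10 and 11 were at 2.39 and 1.398 CPM, above every clone of the second set. Of the TPM of Slc6a9, 30.01% lay in a 488-base non-coding model. In Wdr64, 62.8% of the TPM lay in a model annotated for nonsense-mediated decay. The chemosensory receptor genes Olfr769 (42.5, 32.2 and 33.6 against 5.85, 5.03, 9.28 and 6.04 CPM) and Vmn1r47 (3.43, 2.41 and 3.09 against 0.0975, 0.6099, 0.418 and 0.227 CPM) have long transcripts, and 9.26 and 15.7% of their 31-base words recur in 1107 and 91 other genes, which makes their values uncertain.

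Many of the pseudogenes among the higher genes resembled a retrotransposon in sequence. LINE-1 elements are retrotransposons that make up a large part of the mouse genome, and their RNA encodes an RNA-binding protein, from the first open frame, and a reverse transcriptase, from the second. Gene models were gathered by sequence alone, as pseudogenes with a transcript sharing at least 10% of its 31-base words with a seed, and the seeds Gm48493 and Gm48269 were chosen after their values were seen. Gm48493 is 3841 bases long and holds an open frame of 1280 codons with the active-site motif of the LINE-1 reverse transcriptase, and Gm48269 is 1111 bases long with an open frame of 369 codons that starts like the LINE-1 first protein. No repeat annotation was used, so the families are called the long and the short LINE-1-like family.

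The long family has 48 gene models on 10 chromosomes, of which 40 passed the filter, all on other chromosomes. Of the 40, 31 were higher in the first set without overlap, 0 were lower and 9 overlapped, with a median difference of 1.65, and 18 were 2-fold apart. These members passed the filter partly through their level in the first set. Because reads of near-identical copies are divided between them, the sum over the 48 models is the safer quantity. It was 4646, 3269 and 3679 CPM in clones 8, 14 and 17, against 647, 685, 1007 and 677 CPM in clones 1, 4, 6 and 13, a 5.40-fold difference of the set medians. Clone 10, at 1122 CPM, lay between the sets and nearer to the second, and clone 11, at 953 CPM, within the range of the second. The short family has 10 models, of which 9 passed, and 9 of those 9 were higher without overlap and 8 were 2-fold apart. Its sum was 839, 561 and 623 CPM in clones 8, 14 and 17 and 112, 85.2, 191 and 124 CPM in clones 1, 4, 6 and 13 (5.29-fold). The lowest clone of the first set was 3.25-fold above clone 6, the highest of the second, in the long family and 2.93-fold above it in the short one. Which genomic copies made this RNA cannot be read from these models.

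**Figure D2:**
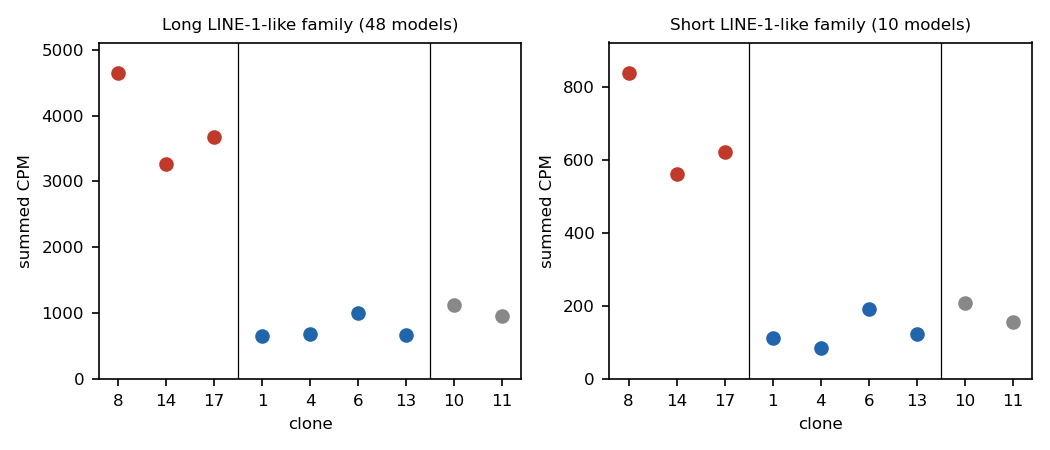
Summed CPM of the long (left) and short (right) LINE-1-like family in each clone, 1 point per library, red for clones 8, 14 and 17, blue for clones 1, 4, 6 and 13 and grey for clones 10 and 11. The first set lies at 3269 to 4646 CPM in the long family, and the second set at 647 to 1007 CPM.

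The genes of named pathways were read from 53 lists, and for each list the members on other chromosomes that passed the filter are given with the number without overlap in each direction, to be set beside the 20.1% higher and 17.6% lower of all 11356 genes. The median difference of all genes on other chromosomes was 0.03. When a clone is left out, fewer clones must be apart, so that more genes of any kind can be called without overlap. Counts with a clone left out can therefore not be set beside the 20.1% and 17.6%.

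**Figure D3:**
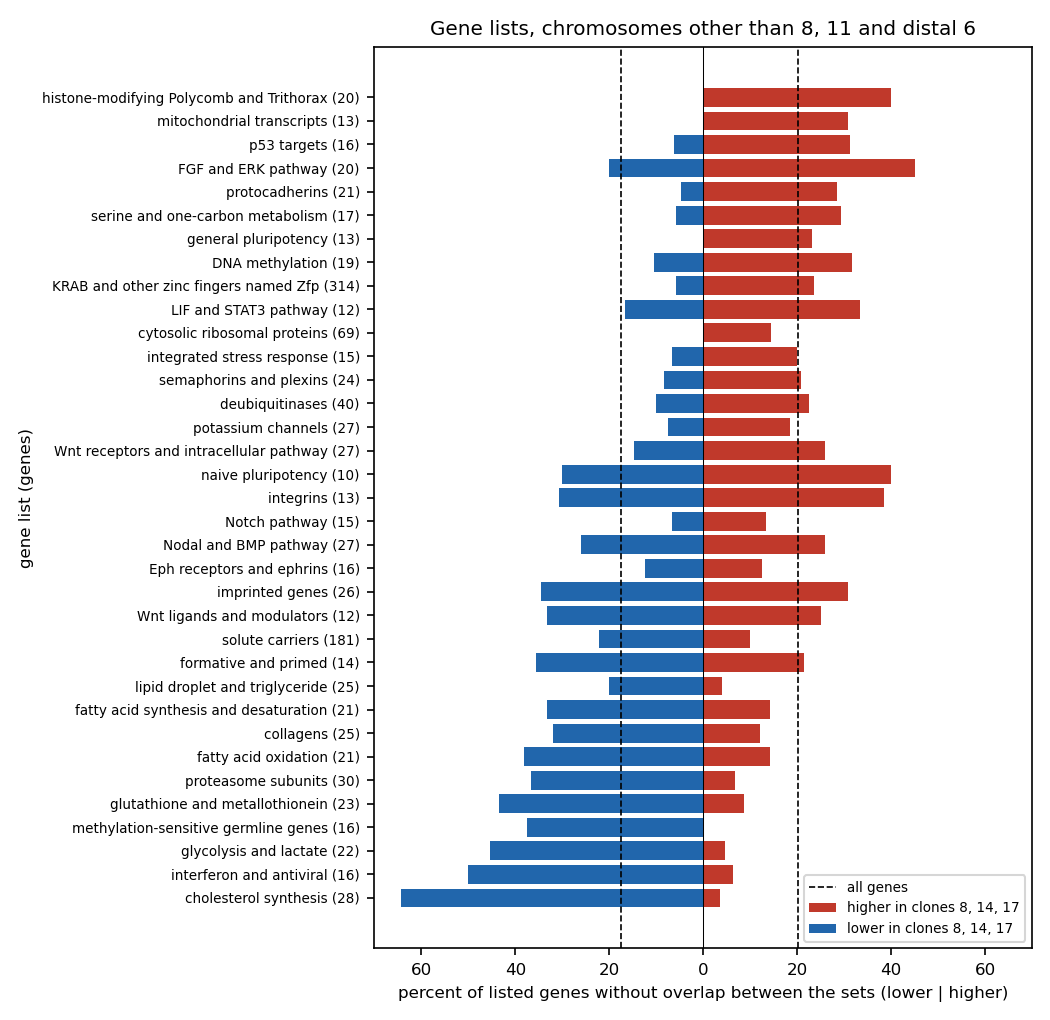
Percent of the members of each gene list on other chromosomes that were higher (red, to the right) or lower (blue, to the left) in clones 8, 14 and 17 without overlap, for the lists with at least 10 such genes (number in brackets). Dashed lines mark the 20.1% and 17.6% of all genes on other chromosomes.

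Of the core pluripotency factors, Pou5f1 and Sox2 overlapped between the sets and Nanog, which lies on distal chromosome 6, was lower in the first, with a difference of -0.64. Pou5f1 was at 1146, 1180.3 and 1288 CPM in the first set and 1019, 1166, 1107 and 978 CPM in the second, and Sox2 at 296, 301 and 288 against 295, 257, 289.9 and 288 CPM. Klf4, a naive factor downstream of LIF, also overlapped, at 85.1, 81.2 and 104 against 89.5, 77.5, 104 and 102 CPM. Of 10 naive pluripotency genes on other chromosomes, 4 were higher (Fgf4, Tbx3, Nr0b1 and Tcl1), 3 were lower (Prdm14, Tfcp2l1 and Nr5a2) and 3 overlapped, and 1 was lower on the log2(TPM + 1) scale. Prdm14, a repressor of Fgf receptor genes and DNA methyltransferases, was at 14.3, 14.9 and 10.2 CPM against 23.7, 18.9, 23.7 and 27.04 CPM. Among 13 genes of general pluripotency, 3 were higher and 10 overlapped. Lin28b, an RNA-binding protein that blocks maturation of the microRNA let-7, was at 48.03, 43.8 and 46.9 CPM in the first set and 19.3, 22.2, 21.7 and 20.99 CPM in the second, and clones 10 and 11 lay near the first set at 46.9 and 41.9 CPM. Hmga2, a chromatin protein chosen here after its values were seen, was at 16.7, 11.3 and 15.7 against 1.85, 5.26, 4.19 and 2.64 CPM. The sets were 2-fold apart in Hmga2, and no link between Lin28b and Hmga2 was tested. Without clone 8, 6 of the 13 were higher, and without clone 17 or clone 4, 5.

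Formative genes, which mark cells that have left the naive state, were split. Of 14, 3 were higher, 5 lower and 6 overlapped. Lef1, a transcription factor of the Wnt pathway, was at 1.57, 1.31 and 0.7903 CPM in the first set against 11.3, 11.1, 7.32 and 11.7 CPM in the second (difference -2.96), and was 2-fold apart. Zic2 and Zic5, zinc finger factors that bind enhancers during exit from the naive state, were lower too. Zic2 was at 8.35, 8.09 and 7.33 against 24.3, 23.9, 15.3 and 18.7 CPM and Zic5 at 10.99, 8.53 and 6.897 against 25.2, 30.2, 20.5 and 25.4 CPM. Tead2, a partner of the Hippo pathway's coactivators, and Sox4 were higher, at 62.4, 62.6 and 68.8 against 45.2, 50.2, 51.9 and 46.7 CPM and at 57.1, 47.7 and 51.8 against 33.3, 38.96, 34.1 and 35.8 CPM. Tead2 and Sox4 were chosen after their values were seen. Of the 31-base words of the main transcript of Zic5, 47.4% occur in 2 other genes. That transcript, a 705-base model annotated as non-coding, held 54.7% of the TPM of Zic5. The de novo methyltransferase Dnmt3b overlapped, at 204, 227 and 212 against 198, 338, 235 and 233 CPM.

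In the FGF and ERK pathway, the ligand Fgf4 and several feedback genes were higher in the first set and 2 receptor genes lower. Of 20 listed genes on other chromosomes, 9 were higher without overlap, 4 were lower and 7 overlapped, with a median difference of 0.70. The ligand Fgf4 was at 214, 191 and 238 CPM in the first set and 126, 138, 128 and 123 CPM in the second. The receptor genes Fgfr2 and Fgfr3 and the ligand Fgf17 were lower, with Fgfr3 at 2.64, 2.19 and 1.65 against 7.897, 3.66, 6.84 and 7.401 CPM. Several genes that ERK signalling induces and that restrain it were higher. Spred1, an inhibitor of Ras and Raf, was at 108, 81.1 and 120 against 47.1, 37.4, 43.2 and 44.5 CPM. Spry4, a Sprouty inhibitor of receptor tyrosine kinases, was at 286, 235 and 340 against 118, 116, 152 and 135 CPM, and Dusp6, the phosphatase of ERK, at 169, 131 and 185 against 80.9, 91.6, 76.3 and 76.5 CPM. Phlda1, another induced gene, was at 4.64, 4.23 and 5.53 against 2.24, 1.45, 2.16 and 1.66 CPM. The transcription factor Etv5, also an ERK target, was lower at 439, 419.9 and 388 against 535, 544, 531 and 508 CPM, with 32.3% of its 31-base words in 1 other gene, and Egr1, Spry1, Spry2 and Dusp5 overlapped, so that the targets did not all differ in 1 direction. Fgf15, Fgf1, Fgfbp1 and Etv1 made up the rest of the higher genes. Spry4, Dusp6 and Etv5 were chosen after their values were seen.

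Of 27 Nodal and BMP genes, 7 (25.9%) were higher, 7 (25.9%) lower and 13 overlapped, beside 20.1% higher and 17.6% lower among all genes on other chromosomes. Lefty2, a secreted inhibitor and target of Nodal signalling, was at 141, 135 and 70.5 CPM in the first set against 515, 427, 478 and 459 CPM in the second. Its neighbour Lefty1 was at 98.2, 103 and 54.2 against 168, 174, 154 and 163 CPM, and the 2 share sequence, with 17.4% of the 31-base words of Lefty2 found in other genes. In both genes clone 17 was the lowest. Cfc1, a Nodal coreceptor, was at 0.642, 1.31 and 0.7903 against 2.44, 2.29, 2.86 and 2.42 CPM, and Nodal itself overlapped at 93.3, 123 and 95.8 against 120.5, 129.8, 116 and 106 CPM. Id1 and Id2, inhibitors of helix-loop-helix factors and targets of BMP signalling, were higher. Id1 was at 81.7, 96.5 and 153 CPM in the first set and 25.5, 44.8, 33.8 and 25.5 CPM in the second, and Id2 at 37.1, 32.9 and 48.8 against 16.3, 17.2, 17.6 and 18.2 CPM. Lefty1, Nodal and Id2 were chosen after their values were seen. Counting only genes of 5 CPM or more, 4 members were lower.

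Sterol synthesis was the list with the largest share of lower genes among the lists of at least 10 genes. Of 28 genes, 18 (64.3%) were lower without overlap, 1 was higher and 9 overlapped, with a median difference of -0.44. The lower genes included Hmgcs1, Mvk, Pmvk, Idi1, Fdps, Fdft1, Sqle, Lss, Cyp51, Nsdhl, Hsd17b7 and Dhcr7, which act at points from the start of the pathway to its end. Fdps, which makes farnesyl diphosphate, was at 104, 100.2 and 106 against 206, 222, 144 and 144 CPM, and Fdft1, which joins 2 molecules of it to squalene, at 70.02, 74.01 and 64.3 against 138, 129, 107 and 114 CPM. Of the 31-base words of Fdps and Fdft1, 85.8 and 21.3% occur in 8 and 1 other genes, which leaves Fdps in particular uncertain. Sqle, which oxidises squalene, was at 69.7, 69.6 and 58.1 against 118, 118, 104 and 99.9 CPM. Dhcr7, the last enzyme of the pathway, was at 17.5, 21.5 and 18.4 against 22.9, 32.7, 35.8 and 32.9 CPM. Clone 14 in Dhcr7, at 21.5 CPM, came close to clone 1 at 22.9 CPM, and in Fdps, Fdft1 and Sqle the sets were further apart.

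Genes that sense and export sterols were split. Insig1, which retains the sterol-sensing complex in the endoplasmic reticulum and is itself induced when sterols are scarce, was at 59.9, 51.99 and 50.8 CPM in the first set and 104, 113, 84.3 and 87.8 CPM in the second (difference -0.88). The 1 higher gene of the list was Abca1, which exports cholesterol and is induced by oxysterols, at 109, 66.2 and 94.3 CPM against 41.7, 23.1, 43.5 and 44.03 CPM (difference 1.14). Abcg1, another exporter of cholesterol, was among the lower genes, and Srebf2, the factor that drives the synthesis genes, overlapped. Fdps, Fdft1 and Sqle were chosen after their values were seen.

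**Figure D4:**
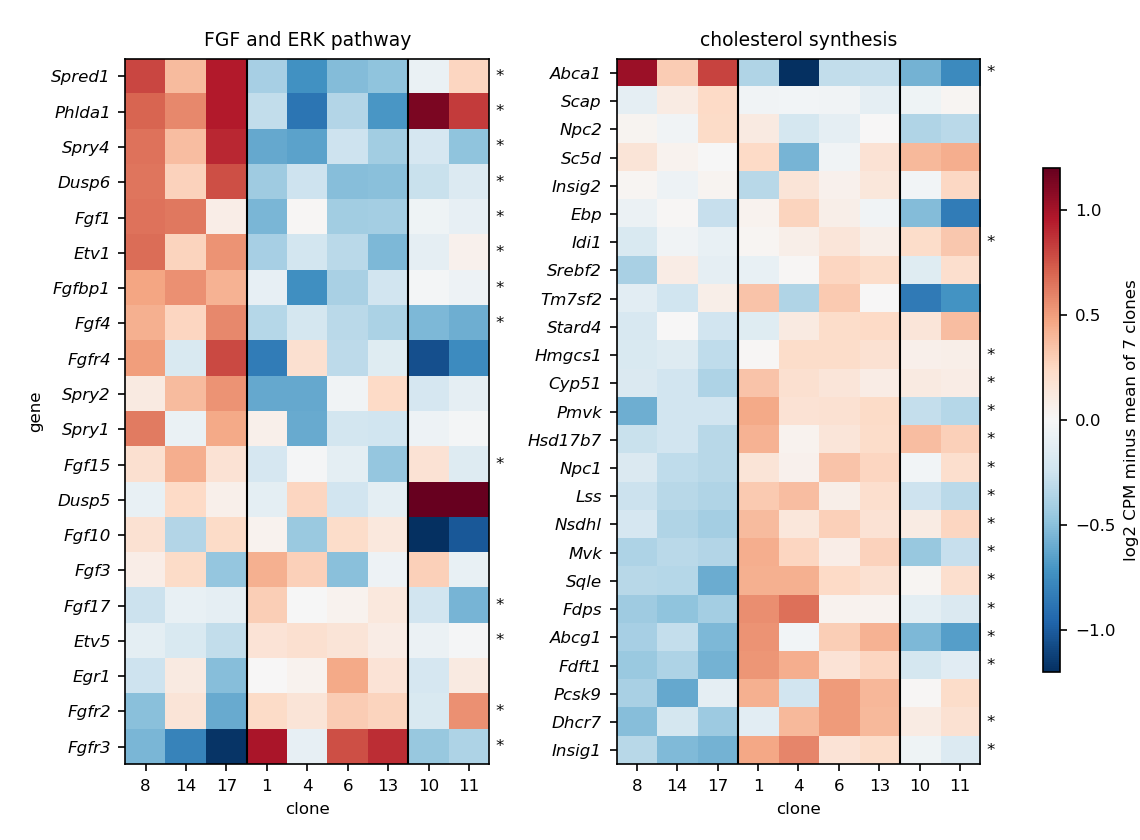
Level of the FGF and ERK genes (left, 20 genes) and 25 of the 28 cholesterol genes (right) on other chromosomes in each clone, as log2 CPM minus the mean of the 7 clones in the sets (colour, saturated at -1.2 and 1.2), ordered by the difference of set medians. Asterisks mark genes without overlap between clones 8, 14 and 17 and clones 1, 4, 6 and 13.

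Genes of fatty acids and lipid droplets were less uniform. Of 21 genes of fatty acid synthesis and desaturation on other chromosomes, 7 were lower and 3 higher, and without clone 4, 12 were lower. Scd1 and Fads2, desaturases of saturated and of polyunsaturated fatty acids, were at 36.5, 31.2 and 36.5 against 69.5, 57.4, 58.4 and 65.3 CPM and at 18.3, 20.1 and 18.3 against 41.9, 26.7, 40.9 and 40.2 CPM. The lower genes of this list also included Scd2, Acsl3 and Acsl5. Acss2, which makes acetyl-CoA from acetate, was at 8.56, 7.15 and 7.903 against 14.3, 13.04, 13.04 and 16.8 CPM. Of 25 genes of lipid droplets and triglyceride metabolism, 1 was higher, 5 were lower and 19 overlapped, and the lower count was 8 without clone 14, clone 4 or clone 6. Dgat2, which adds the last acyl chain of triglycerides, was at 3.14, 4.52 and 3.45 CPM in the first set and 13.6, 8.54, 12.8 and 12.5 CPM in the second. Plin2, the protein that coats lipid droplets in most cells, overlapped at 17.3, 19.03 and 17.6 against 25.3, 20.7, 18.7 and 19.6 CPM. Of 21 genes of fatty acid oxidation, 8 were lower and 3 higher, and 5 were lower on the log2(TPM + 1) scale. Cpt1b, a carrier of fatty acids into mitochondria, was higher, at 6.42, 3.35 and 6.83 against 1.75, 1.601, 2.51 and 2.57 CPM, and Etfb, which passes electrons on from the oxidation, lower, at 39.1, 48.9 and 45.5 against 83.5, 79.9, 85.2 and 83.6 CPM. Both are uncertain, since 93.7 and 68.0% of the 31-base words of their main transcripts occur in 1 other gene each. Scd1 and Acss2 were chosen after their values were seen.

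Genes of glutathione metabolism and of glycolysis were mostly lower where they did not overlap. Of 23 glutathione and metallothionein genes, 10 were lower and 2 higher. The glutathione transferases Gstp2 and Gstp1 were at 4.43, 5.47 and 3.38 against 16.9, 12.9, 16.95 and 15.7 CPM and at 19.98, 21.6 and 18.03 against 41.4, 41.7, 36.3 and 37.6 CPM, and 78.1 and 67.5% of their 31-base words occur in 3 other genes. Gpx4, the peroxidase that reduces lipid peroxides, was at 220.1, 248 and 223 CPM in the first set and 409, 356, 364 and 319 CPM in the second, with 73.6% of its 31-base words in 1 other gene. Of 22 genes of glycolysis and lactate on other chromosomes, 10 were lower and 1 was higher, with a median difference of -0.10. Gstp1 and Gpx4 were chosen after their values were seen.

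Some interferon-induced genes were among the lower genes with the widest gaps. Of 16 listed, 8 (50%) were lower, 1 was higher and 7 overlapped, and 6 of the lower ones were 2-fold apart. The guanylate-binding proteins, GTPases that attack intracellular pathogens, had the widest gaps. Gbp2 was at 0.4996, 0.365 and 0 CPM in the first set against 4.68, 8.69, 3.14 and 4.23 CPM in the second. Gbp3 was at 0.214, 0.583 and 0.144 against 5.75, 3.81, 3.21 and 3.32 CPM, and Gbp2b at 0.357, 0.219 and 0.215 against 3.997, 6.86, 2.02 and 2.49 CPM. In all 3 genes clones 10 and 11 were higher than either set, at 34.9 and 51.2 CPM in Gbp2. Each of the 3 was under 1 CPM in every clone of the first set and passed the filter through the other clones. Oas1a, which makes the activator of RNase L, was at 4.497, 4.45 and 4.598 against 19.5, 27.4, 15.4 and 14.05 CPM, although 68.8% of its 31-base words recur in 4 related genes. H2-K1, a class I histocompatibility antigen, was at 7.92, 5.396 and 5.68 against 25.3, 19.5, 17.8 and 20.5 CPM, with 23.3% of its 31-base words shared, and Psmb8, a subunit of the immunoproteasome, at 0.0714, 0.146 and 0.215 against 0.7799, 1.75, 0.767 and 1.06 CPM, which in the first set are 1, 2 and 3 counts. Ifit2, an interferon-induced inhibitor of translation, went the other way at 3.35, 4.08 and 3.66 against 1.66, 1.14, 2.02 and 1.89 CPM. Outside the list, Zbp1, a sensor of left-handed nucleic acids, was at 0.143, 0.0729 and 0.215 against 2.44, 1.37, 1.95 and 2.79 CPM, and Parp12, an antiviral ADP-ribosyltransferase, at 4.28, 4.81 and 5.46 against 24.7, 18.4, 20.6 and 21.1 CPM. Oas1a, H2-K1, Ifit2, Zbp1 and Parp12 were chosen after their values were seen. Among 30 proteasome subunits on other chromosomes, 11 were lower and 2 higher, with a median difference of -0.13. Outside that list, Psme2, a subunit of the activator that opens the proteasome and is induced by interferon gamma, was at 26.6, 26.9 and 24.6 against 82.5, 79.4, 72.8 and 77.7 CPM. Of its 31-base words, 66.2% occur in 2 other genes, and Psme2 was also chosen after its values were seen.

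Germline genes that are known to be silenced by promoter methylation, where they passed the filter, were lower or overlapped. Some of the lower ones, Fkbp6, Smc1b and Tdrd7, were under 1 CPM in every clone of the first set. They passed the filter through the other clones. Of 16 on other chromosomes, 0 were higher and 6 lower, and 1 was lower when only genes of 5 CPM or more were counted. Fkbp6 and Smc1b, which serve meiotic chromosome pairing and cohesion, were at 0.571, 0.146 and 0.287 against 2.24, 4.73, 2.02 and 1.66 CPM and at 0.285, 0.875 and 0.575 against 3.22, 1.601, 5.09 and 4.46 CPM. Tdrd7, a Tudor protein of germ cell granules, was at 0.714, 0.802 and 0.7903 against 2.34, 1.83, 2.16 and 2.72 CPM, and Dazl, a translational regulator of germ cells, at 3.497, 2.99 and 2.51 against 6.24, 4.65, 6.35 and 5.14 CPM. On the X chromosome, Rhox6 and Rhox13, homeobox genes of the reproductive tract and placenta, were lower among the 3 Rhox genes that passed the filter, of 34 in the files. Rhox6 was at 3.28, 7.95 and 3.45 CPM in the first set and 31.8, 8.39, 25.1 and 26.5 CPM in the second, clone 14 lying just under clone 4, and 23.3% of its 31-base words occur in 1 other gene. Kit, the stem cell factor receptor of germ cells, was at 39.4, 41.8 and 31.97 CPM in the first set and 121, 120.3, 133 and 146 CPM in the second, 2-fold apart. The maintenance methyltransferase Dnmt1 was higher, at 559.6, 533 and 505 against 390, 464, 423 and 408 CPM, as were the cofactor Dnmt3l (475, 564 and 552 against 460, 414, 438 and 457 CPM) and the 5-methylcytosine oxidase Tet1 (463, 432 and 411 against 287, 307, 385 and 359 CPM). In all, 6 of 19 genes of DNA methylation and demethylation were higher and 2 lower. Fkbp6, Tdrd7, Dazl, Dnmt1, Dnmt3l and Tet1 were chosen after their values were seen.

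Polycomb and Trithorax genes on other chromosomes included 8 of 20 higher and 0 lower, while 12 overlapped. Bmi1, a subunit of Polycomb repressive complex 1, had the widest gap, at 8.78, 7.802 and 9.196 CPM in the first set and 1.95, 1.22, 2.51 and 1.66 CPM in the second, and 39.9% of the 31-base words of its main transcript occur in 2 other genes. Kdm2b, which brings a variant of that complex to CpG islands, was at 215, 189 and 225 against 111, 150.2, 120.3 and 118 CPM. Eed, a core subunit of complex 2, was at 331, 324 and 348 against 215, 248, 233 and 232 CPM, and Ezh2, its methyltransferase, at 121, 143 and 125 against 65.3, 85.6, 118 and 110.1 CPM with clone 6 close to the first set. Eed and Ezh2 were chosen after their values were seen. Of the TPM of Kdm2b, 23.0% lay in a 641-base retained-intron model. Imprinted genes differed in both directions, with 8 of 26 higher and 9 lower, and 5 were higher on the log2(TPM + 1) scale. Plagl1, a paternally expressed zinc finger factor, was at 10.3, 7.88 and 8.19 against 1.85, 6.25, 3.63 and 2.27 CPM, and Slc22a18, a maternally expressed transporter, at 0.428, 0.5104 and 1.15 against 2.63, 1.52, 2.58 and 3.096 CPM.

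Among 314 zinc finger genes named Zfp on other chromosomes, many of which repress retrotransposons, 74 (23.6%) were higher and 18 (5.73%) lower, with a median difference of 0.12. Without clone 8 the lower count was 41, and without clone 4 it was 29. The GC content of the main transcript moved with the difference over all genes: when genes were ordered by GC content into 10 equal bins, the median difference ranged from -0.06 to 0.16, the latter in the bin with the least GC. In 10 bins by transcript length it ranged from -0.06 to 0.14, the latter in the longest transcripts. The Zfp genes had a median GC content of 44.9%, the cholesterol genes 50.5% and the FGF and ERK genes 51.0%, and the part of GC content and length in these results was not tested. Of 69 cytosolic ribosomal protein genes on other chromosomes, 10 (14.5%) were higher, beside 20.1% of all genes there, and 0 lower. Their median difference was 0.10. Without clone 1 or clone 4, 16 and 22 were higher, under a rule that any gene meets more easily with fewer clones.

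Of the telomere genes on other chromosomes, a subject the series title names, 2 of 6 shelterin and end-protection genes were higher and 1 lower, and 3 of 9 telomerase genes were higher and 0 lower. Tert, the catalytic subunit of telomerase, was at 21.5, 21.1 and 20.8 CPM in the first set and 19.8, 17.99, 18.6 and 19.3 CPM in the second, without overlap but with a difference of 0.16. Terf1, which binds telomeric repeats, overlapped at 81.9, 125 and 106 against 55.7, 76.2, 115 and 109 CPM. Pot1b, which binds the single-stranded telomere end, was at 6.42, 6.27 and 6.61 against 3.12, 4.96, 4.26 and 4.23 CPM. Terf2, the other repeat-binding protein, lies on chromosome 8 and was at 42.5, 43.02 and 42.7 against 20.96, 25.4, 29.9 and 24.3 CPM, a difference of 0.78 beside the median difference of 0.51 for that chromosome. On chromosome 11, Nhp2 and Wrap53, which serve assembly and transport of telomerase, were lower, at 205, 230.5 and 205 against 407, 378, 339 and 337 CPM and at 31.7, 41.8 and 35.9 against 62.5, 68.2, 57.2 and 55.7 CPM. Without clone 14, 3 of the 9 telomerase genes on other chromosomes were lower.

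Markers of other cell types were summed in each clone. The sum of 7 fibroblast markers was 5.995 to 7.36 CPM in the first set and 11.3 to 20.2 CPM in the second, with 3 of the 4 that passed the filter lower and Postn at 0 in all 7 clones. The sum of 5 mesoderm markers was 5.14 to 6.18 CPM and 11.998 to 15.1 CPM, with 3 of 4 lower. For 6 primitive endoderm markers it was 6.49 to 9.84 and 4.12 to 7.604 CPM, with 1 of 3 higher. For 6 trophoblast markers it was 31.1 to 47.03 and 36.8 to 108 CPM, clone 4 being the highest, with 1 of 5 lower. For 4 neural markers it was 129.6 to 148 and 144 to 163 CPM, with 1 of 4 higher. The sums of fibroblast and mesoderm markers did not overlap between the sets and those of the other lists did, and their part in the differences above was not tested. Genes of all chromosomes were summed: Col1a1 lies on chromosome 11, and Sox1, the 1 higher neural marker, on chromosome 8. Thy1 made up most of the fibroblast sum in the first set, at 4.35, 6.27 and 5.39 CPM. Eomes, which was lower, counts in both the trophoblast and the mesoderm list. In clones 10 and 11 the fibroblast sum was 53.97 to 63.5 CPM.

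Within genes, few transcripts differed widely in share, and a transcript of small share in every clone cannot meet such a rule. The count below therefore does not show that transcript use was alike. Among 50066 transcripts of 7333 genes with at least 10 CPM in each of the 7 clones, 2 (0.00399%) had a share of their gene's TPM that was apart by 30 percentage points or more. One was the main coding transcript of Dyrk2, a kinase, with 99.99, 100 and 100% in clones 8, 14 and 17 and 54.4, 51.5, 69.3 and 61.2% in clones 1, 4, 6 and 13. The other was a retained-intron transcript of Akap9, a scaffold protein of the Golgi and centrosome, with 67.1, 68.7 and 71.6% against 20.2, 22.8, 31.8 and 26.0%.

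Chromosome 8 as a whole was higher in the first set. Of 716 genes, 491 (68.6%) were higher without overlap and 22 (3.07%) lower, and the median difference was 0.51. Relative to the mean of the 7 clones, the chromosome median was 0.27, 0.32 and 0.29 in clones 8, 14 and 17 and -0.25, -0.25, -0.10 and -0.26 in clones 1, 4, 6 and 13. Clone 6 thus lay between the other 3 clones of its set and the first set. Clone 10 was at 0.24, with the first set, and clone 11 at -0.25, with the second. Among genes 2-fold apart, 10 (1.4%) were higher and 7 (0.978%) lower. Sox1, a factor of the early neural plate, was at 5.28, 2.92 and 7.11 CPM in the first set and 0.682, 0.457, 0.767 and 0.453 CPM in the second, and Nkx6-3, a homeobox gene of the stomach, at 9.92, 6.34 and 18.1 against 1.36, 0.6099, 1.81 and 2.11 CPM. Against the direction of the chromosome, Calb2, the calcium buffer calretinin, was at 1.36, 2.33 and 0.7903 against 9.75, 13.2, 9.77 and 8.23 CPM and Sdr42e1, a short-chain dehydrogenase, at 0.214, 0.219 and 0.215 against 1.75, 1.68, 1.604 and 2.27 CPM.

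Chromosome 11 was lower in the first set. Of 1073 genes, 725 (67.6%) were lower without overlap and 21 (1.96%) higher, with a median difference of -0.52. The chromosome median was -0.32, -0.27 and -0.29 in clones 8, 14 and 17 and 0.26, 0.25, 0.18 and 0.22 in clones 1, 4, 6 and 13, with clones 10 and 11 at 0.16 and 0.20. Here 50 genes (4.66%) were 2-fold apart and lower and 1 (0.0932%) was higher. Fat2, an atypical cadherin, had the widest gap, at 0.0714, 0.438 and 0.431 CPM in the first set and 12.97, 9.68, 14.4 and 14.8 CPM in the second. Sstr2, a somatostatin receptor, was at 0.285, 0.438 and 0.503 against 5.36, 8.54, 4.12 and 4.68 CPM, and Myh3, embryonic skeletal myosin, at 0.642, 1.17 and 1.08 against 7.799, 10.9, 10.9 and 9.36 CPM. Hormad2, a meiotic protein on the list of methylation-sensitive germline genes, was at 0.785, 0.365 and 0.287 against 5.46, 7.93, 6.98 and 6.65 CPM. Notum, a Wnt-inactivating lipase, was at 23.6, 27.1 and 21.1 against 83.7, 57.8, 60.7 and 73.7 CPM and Slc16a3, a lactate exporter, at 75.7, 80.9 and 73.2 against 231, 183, 187 and 194 CPM. The differences were -4.58 for Fat2, -3.14 for Sstr2, -3.06 for Myh3 and -3.76 for Hormad2, and -1.50 for Notum and -1.33 for Slc16a3. These genes were named for wide gaps or large differences, so values beyond the chromosome median follow from that choice. Of the TPM of Notum, 35.3% lay in a retained-intron model. The lipogenic genes Srebf1, Acly and Fasn also lie on this chromosome, with differences of -0.79, -0.56 and -0.53, and were chosen after their values were seen.

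Distal chromosome 6 separated the sets less cleanly. Of 231 genes, 89 (38.5%) were lower without overlap and 6 (2.6%) higher, with a median difference of -0.54. The median of the segment was -0.29, -0.27 and -0.25 in clones 8, 14 and 17 and 0.44, -0.22, 0.27 and 0.36 in clones 1, 4, 6 and 13, so that clone 4 lay with the first set. Without clone 4, 182 of the genes were lower without overlap. Clones 10 and 11 were at -0.27 and -0.28. Of the 231 genes, 9 (3.9%) were 2-fold apart and lower and 0 (0.0%) higher. Tuba3a, a testis tubulin whose upstream stretch is shown above, was at 1.36, 1.75 and 0.934 CPM in the first set and 19.4, 11.8, 28.8 and 26.3 CPM in the second, and 48.4% of its 31-base words occur in 5 other genes. Mfap5, a protein of elastic microfibrils, was at 0.285, 0.219 and 0.359 against 3.41, 2.82, 2.79 and 3.25 CPM, Magohb, of the exon junction complex, at 1.86, 2.55 and 0.7903 against 11.6, 8.77, 8.51 and 10.6 CPM and Il17rc, a subunit of the interleukin-17 receptor, at 1.21, 1.31 and 1.51 against 8.38, 5.03, 7.18 and 7.48 CPM. Nanog lies in this segment and was at 326, 309 and 279.5 against 537, 473, 454 and 493 CPM, without overlap, and Dppa3, a maternal factor that protects methylation marks, at 17.4, 26.9 and 8.33 against 54.5, 78.9, 59.99 and 52.8 CPM, with 31.8% of its 31-base words in 4 other genes.

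**Figure D5:**
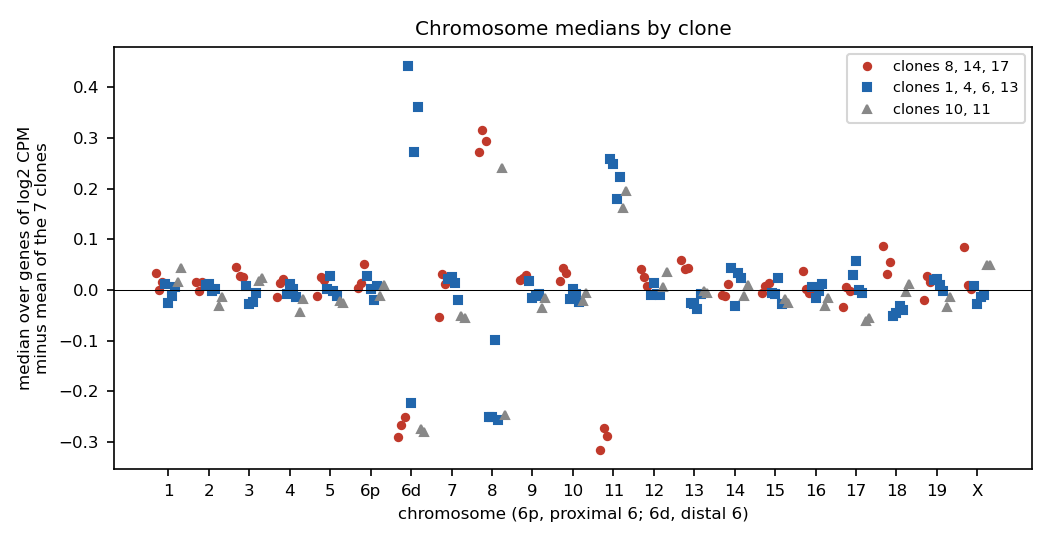
Median over the genes of each chromosome of log2 CPM minus the mean of the 7 clones in the sets, 1 point per clone (red circles, clones 8, 14 and 17; blue squares, clones 1, 4, 6 and 13; grey triangles, clones 10 and 11). The sets stand apart on chromosomes 8 and 11, clone 6 is intermediate on chromosome 8 at -0.10, and clone 4 lies with the first set on distal chromosome 6 at -0.22.

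All other chromosomes had a median difference between -0.02 and 0.11, chromosome 18 being the highest, leaving out chromosome Y and the mitochondrial genome with 11 and 13 genes. For the genes 2-fold apart on other chromosomes, clones 10 and 11 were set against the midpoint of the set medians. Among the 84 higher genes, clone 10 lay on the side of the first set in 23 (27.4%) and clone 11 in 15 (17.9%). Among the 100 lower genes the counts were 35 (35.0%) and 21 (21.0%). Within the second set, clone 6 was the clone nearest to the first set in 54 of the 84 higher genes and in 29 of the 100 lower ones, and clone 4 in 16 and 37. Within the first set, clone 14 was the clone nearest to the second in 60 of the 84 and in 44 of the 100.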

How the data were processed

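RNA from 9 clones of E14 cells was sequenced with a stranded poly(A) protocol, per the labels' protocols. The submitters' processing notes name CASAVA 1.8, FastQC, Trimmomatic 0.33 and kallisto 0.43.1, with mm10 and GRCm38 as genome builds. The authors deposited, per the file headers, an estimated count and a TPM for each of 115270 transcripts per clone. No file gives an error for these estimates.

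From the deposited values, estimated counts were summed to 35580 genes of GENCODE for GRCm38 by transcript identifier and rounded to whole numbers. In all, 98.53% of transcripts matched, and the others held 0.641 to 0.773% of counts. Log2 CPM used TMM factors from edgeR 4.0.16 (R 4.3.3) and a prior count of 2, and genes whose mean over the clones reached 1 CPM were kept. Python 3.11.15 with numpy 2.4.6 and pandas 2.3.3 did the rest, and the comparison was tested on simulated data. Fold differences are on these scales.

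The clone sets, the 53 gene lists and the alternatives were chosen with earlier results of these data known, and the sets come from expression itself, so no test between the sets was run. Genes were named as the 12 protein-coding genes with the widest gap in each direction on other chromosomes, the 4 widest on chromosome 8, chromosome 11 and distal chromosome 6, up to 3 members of each list, the transcripts with the widest gaps in share, and 11 preset genes. Others given with values are marked as chosen after their values were seen, and a few genes are not reported here. Transcript and promoter sequence came from GENCODE and RefSeq. Counting error limits each value, and dividing reads between genes that share sequence can add an error that the files do not give. Alternatives were other scaling, filters, prior count, unit, gap and boundary, protein-coding genes only, and each clone left out.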

Additional observations from a re-analysis of the deposited data

Results flagged for a closer look

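Of 41 values examined within the second set, 3 had 1 clone standing apart, meaning that its distance to the next clone, as a share of the whole range of the 4 clones, was above Dixon's critical value. Levels were taken as log2 CPM. Chance flags about 1 in 20 such groups, and the set was itself put together by expression similarity, so these are descriptions only. The median of chromosome 8 in clone 6 was one, with a share of 0.965: clone 6 was at -0.10 and the other 3 clones at -0.25 to -0.26. The summed level of the long LINE-1-like family in clone 6 was another, with a share of 0.872, at 1007 CPM beside 647 to 685 CPM in clones 1, 4 and 13. The level of Wdfy4 in clone 4 was the last, with a share of 0.953, at 3.51 CPM beside 1.75 to 1.81 CPM.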

How the results depend on the processing

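Each clone is 1 library, so all values rest on single samples, and 3 counts is 0.209 to 0.293 CPM. No paired analysis was possible because each group in the labels is 1 clone and no test between the sets was run. Genes on other chromosomes 2-fold apart and higher numbered 84, or 50 on the log2(TPM + 1) scale and 49 counting protein-coding genes only. Those lower numbered 100, or 45 at 5 CPM or more and 44 on the log2(TPM + 1) scale. With a smallest gap above 0, of 0.5 or of 2, the higher counts were 2281, 292 and 2 and the lower counts 1995, 370 and 16. Leaving out 1 clone gave 93 to 132 higher and 107 to 173 lower genes, in both cases most without clone 14. The same gave 492 to 517 higher genes on chromosome 8 and 731 to 789 lower on chromosome 11, against 491 and 725 in full. On distal chromosome 6 it gave 90 to 182 lower genes, against 89, the most without clone 4. With no filter on low genes the median difference was 0.37 on chromosome 8 and -0.39 on chromosome 11, and the latter was -0.45 on the log2(TPM + 1) scale. Leaving out 1 clone kept these medians at 0.48 to 0.54 and at -0.53 to -0.50. Transcripts apart in share numbered 8 at 20 percentage points and 0 at 50. Of 2019 values of the 174 genes named by rule under the alternatives, 2 had the other sign, both in Terf1. Apart from the preset genes, these genes were named for not overlapping in these same data. Their signs were therefore largely fixed in advance, whereas Terf1 is a preset gene that overlapped. The 5.40-fold and 5.29-fold differences of the LINE-1-like families were 5.03 to 6.12 and 4.98 to 6.21 under alternatives chosen after seeing the data. Among small list counts, the higher genes of fatty acid synthesis went from 3 to 1 at 5 CPM or more or on the log2(TPM + 1) scale, those of fatty acid oxidation from 3 to 0 on that scale, those of lipid droplets from 1 to 3 on that scale or without clone 8, and those of cholesterol from 1 to 2 without clone 8. Counts of 0 became 1 when 1 clone was left out for higher germline genes (without clone 4 or 13) and lower Polycomb genes (without clone 14 or 4).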

Other observations

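Cell adhesion genes differed in both directions between clones 8, 14 and 17 and clones 1, 4, 6 and 13. Of 13 integrin genes on other chromosomes, 5 were higher without overlap, or 3 on the log2(TPM + 1) scale, and 4 lower. Itgb5, a vitronectin receptor subunit, was at 79.2, 92.9 and 81.98 CPM in the first set against 38.5, 35.8, 49.9 and 40.3 CPM in the second, and Itgb7, a subunit of lymphocyte homing receptors, at 19.5, 21.2 and 23.7 against 45.6, 50.1, 41.4 and 43.9 CPM. Itgb1, the common beta subunit, lies on chromosome 8 and was at 328, 314 and 355 against 128, 129.5, 185 and 145 CPM. Of 21 protocadherin genes, 6 were higher and 1 lower, and 0 in either direction at 5 CPM or more. The lower one, Pcdhgc4, was at 0.428, 0.292 and 1.29 against 3.22, 5.49, 7.74 and 2.11 CPM, but 93.3% of the 31-base words of its main transcript occur in 289 other genes. Keratins lie mainly on chromosome 11, where 5 of 6 were lower, beside 67.6% of all genes there, and Krt19 was at 4.85, 9.04 and 5.17 against 26.7, 38.96, 25.2 and 25.2 CPM, with clones 10 and 11 at 119.5 and 112 CPM.

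Among stress and growth genes, Nupr1, a stress-induced chromatin protein, was at 4.21, 1.17 and 4.31 CPM in the first set against 0.195, 0.6099, 0.558 and 0.453 CPM in the second. It was 1 of 3 higher genes among 15 (20%) of the integrated stress response on other chromosomes, beside 20.1% of all genes there. Without clone 14, 9 of the 15 were higher, under a rule that any gene meets more easily with fewer clones. Mthfd2, a mitochondrial folate enzyme, was at 99.99, 60.7 and 114 against 47.8, 52, 52.6 and 50.1 CPM, and 5 of 17 serine and one-carbon genes were higher and 1 lower. Of 12 genes of the LIF and STAT3 pathway, 4 were higher and 2 lower, with Gbx2, a STAT3 target, at 23.8, 24.9 and 31.5 against 14.04, 13.4, 16.3 and 18.4 CPM and the kinase gene Jak2 at 8.56, 6.42 and 7.11 against 3.9, 4.96, 4.95 and 4.83 CPM. Of 13 mitochondrial transcripts, 4 were higher and 0 lower. Among these, mt-Nd1, of respiratory complex I, was at 789.7, 648 and 775 against 507, 342, 542 and 481 CPM, clone 4 being the lowest. The cyclin gene Ccnd2 on distal chromosome 6, chosen after its values were seen, was at 9.06, 10.6 and 7.33 against 27.9, 32.6, 48.8 and 51.8 CPM.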
